A study of Homo sapiens with 6 samples.

Results

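The CDK inhibitors and D cyclins are 10 human genes that act at the same step of the cell cycle. They were chosen by gene name as the CIP/KIP inhibitors CDKN1A, CDKN1B and CDKN1C, the INK4 inhibitors CDKN2A, CDKN2B, CDKN2C and CDKN2D, and the D cyclins CCND1, CCND2 and CCND3. All 10 had a row among the 60843 genes of the deposited table, and all 10 passed the filter on low counts that left 16327 genes for testing. The 6 RNA sequencing libraries were made from BJ, an established fibroblast line from normal human foreskin, with 2 libraries each for day 0, day 2 and day 5 of a protocol that the series title describes as chemical reprogramming into cells named FiNs. Day 0 cells carried the label BJ and had been grown in DMEM with 10% fetal bovine serum. Day 2 cells had been in neuronal induction medium with 10 µM forskolin, and day 5 cells had then been moved to neuronal maturation medium with 10 µM forskolin. The protocol takes forskolin away on day 5, and the labels do not say whether those libraries were collected before that change. Forskolin, a diterpene from plants, raises cAMP by activating adenylyl cyclase. All libraries are labelled wild type, and the cells of the protocol were seeded on poly-D-lysine. No forskolin-free cells in these media were analysed here, and the effects of time, of the medium and of the drug cannot be told apart. The labels call the day 2 and day 5 cells induced neurons. Against that name, 14 neuronal markers summed to 149 to 156 CPM on day 2 and 107 to 111 CPM on day 5, against 243 to 252 CPM on day 0, and STMN2 and ELAVL4 had no counts on any day. Only 5 of the 14 passed the filter, of which 1 rose and 2 fell on day 5 against day 0. The one that rose was SNAP25, a synaptic protein, named here after its values were seen, with 16.9 and 19.8 CPM on day 5, against 5.76 and 6.01 CPM on day 0. The 12 fibroblast markers were detected on every day and summed to 25095 to 25499 CPM on day 0, 23669 to 23936 CPM on day 2 and 35379 to 35827 CPM on day 5. By gene, 4 of the 12 rose and 8 fell on day 5 against day 0 (median log2 fold change -0.24), so the sum follows a few abundant genes. The libraries are therefore named by day.

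D cyclins are made in response to growth signals and bind the kinases CDK4 and CDK6. The active kinases phosphorylate the retinoblastoma protein RB and its relatives, which frees E2F transcription factors to switch on genes for DNA replication. INK4 proteins bind CDK4 and CDK6 and keep the D cyclins off them. CIP/KIP proteins bind whole cyclin and kinase complexes, mainly inhibiting those of CDK2 and, at some levels, helping D cyclins assemble with CDK4. In fibroblasts the inhibitors are known for arrest after serum withdrawal, in contact-inhibited cultures, after DNA damage and in senescence, and much of this control also acts on protein stability, which RNA does not show.

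Levels are CPM, in which TMM factors bring the counts of all libraries to the same scale. A log2 fold change is given with its standard error (SE), and each adjusted p, called under 0.05, is that of edgeR's quasi-likelihood test after Benjamini-Hochberg correction for the 16327 genes. Library totals ran from 17605858 counts, in a day 5 library, to 27953926 counts, in a day 2 library, and 3 counts, taken as the limit of detection, amounted to 0.103 to 0.180 CPM. The common coefficient of biological variation between replicates was only 3.33%, so that small differences passed the test, and a second call asked whether a change was larger than 2-fold (glmTreat). Whether replicate libraries were separate cultures is not in the labels, so the p-values cover only the spread between the libraries sequenced, which may be technical. Scaling by library totals in place of TMM lowered the median log2 fold change of all genes to -0.18 from 0.00 on day 2 against day 0, and to -0.16 from 0.04 on day 5 against day 0. In bulk RNA, a smaller share of cells that express a gene and less of its RNA in each cell cannot be told apart.

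On day 2 against day 0, 5 of the 10 genes rose and 4 fell, in a comparison where 33.4% of all tested genes rose and 33.4% fell. On day 5 against day 2, 4 rose and 5 fell, with 32.1% of all genes higher and 33.7% lower. On day 5 against day 0, 5 rose and 5 fell, with 35.8% of all genes higher and 34.1% lower. In all, 66.8%, 65.8% and 69.9% of the tested genes were called in these comparisons, taken in that order. With library totals 4 members rose and 5 fell on day 2 against day 0. Over all genes that scaling called 4249 genes higher and 6902 lower, in place of 5457 and 5455, on day 2 against day 0, and 4415 and 6899, in place of 5839 and 5566, on day 5 against day 0. Changes larger than 2-fold were found in 3 members upward and 1 downward on day 2 against day 0 (6.99% and 5.54% of all genes), in 2 upward and 3 downward on day 5 against day 2 (6.41% and 7.96%), and in 2 upward and 3 downward on day 5 against day 0 (9.74% and 10.3%). In either direction 12.5%, 14.4% and 20.1% of all genes passed that test in those comparisons. The 3 comparisons share libraries and are not independent of one another. The plot of levels by library shows how the 10 genes moved over the days.

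**Figure D1:**
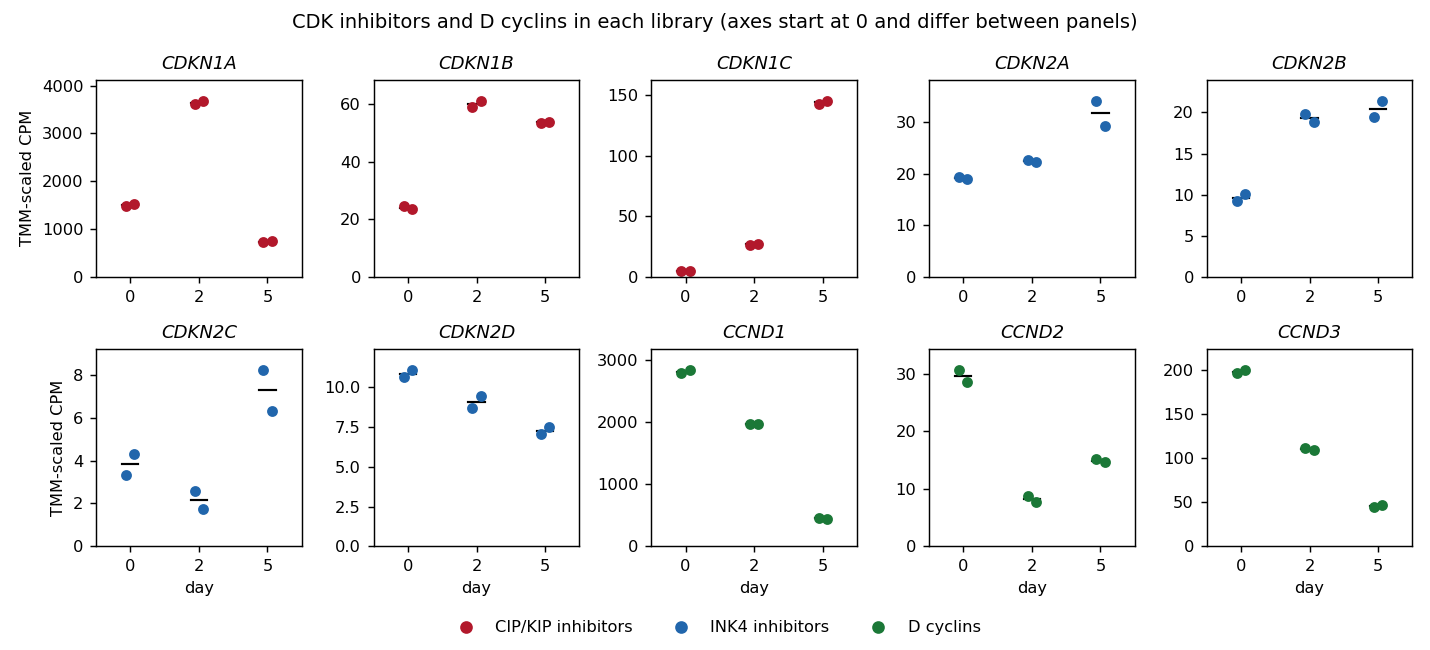
TMM-scaled CPM (vertical axis, from 0, a separate scale for each gene) of the 10 genes by day (horizontal axis). Points are the 2 libraries of a day and bars their mean. CDKN1A peaks on day 2 near 3643 CPM and falls to 733 CPM on day 5, CDKN1C climbs to 144 CPM on day 5, and CCND1 and CCND3 fall on both later days.

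CDKN1A encodes p21, the CIP/KIP inhibitor known for its rise after DNA damage and many other signals. It lies on chromosome 6 at 36676460 to 36687339 of GRCh38, on the plus strand. It had 1486 and 1524 CPM on day 0, 3605 and 3681 CPM on day 2, and 726 and 741 CPM on day 5. The libraries of the 3 days did not overlap, with day 2 highest and day 5 lowest. It was 2.42-fold higher on day 2 than on day 0 (log2 fold change 1.28 ± 0.02, adjusted p = 2.9e-19 in edgeR). On day 5 it was 4.97-fold lower than on day 2 (log2 fold change -2.31 ± 0.02, adjusted p = 1.8e-22 in edgeR). It was also lower on day 5 than on day 0, with a log2 fold change of -1.04 ± 0.02 (adjusted p = 3.9e-18 in edgeR). That last drop lay near 2-fold. It passed the test against 2-fold (adjusted p = 0.042), but not without day 0 replicate 2 (adjusted p = 0.14) or day 5 replicate 1 (adjusted p = 0.13), with adjusted p between 4.9e-10 and 0.14 over the settings run.

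CDKN1B encodes p27, an inhibitor known for its rise in resting cells and for its destruction by the SKP2 ubiquitin ligase. It lies on chromosome 12 at 12715058 to 12722371. Its level was 24.7 and 23.5 CPM on day 0, 58.9 and 61.2 CPM on day 2, and 53.4 and 53.9 CPM on day 5. The rise on day 2 was 2.49-fold (log2 fold change 1.32 ± 0.06, adjusted p = 1.9e-12 in edgeR), and both later days lay above day 0. On day 5 it stayed 2.23-fold above day 0 (adjusted p = 1.8e-11 in edgeR), a rise that passed the test against 2-fold (adjusted p = 0.014) but not with library totals (adjusted p = 1), without day 0 replicate 2 (adjusted p = 0.14) or without day 5 replicate 2 (adjusted p = 0.058). The step on day 5 against day 2 was small, a log2 fold change of -0.16 ± 0.05 (adjusted p = 0.016 in edgeR). Its call was lost without day 2 replicate 2 (log2 fold change -0.14), without day 5 replicate 1 (-0.16) or without day 5 replicate 2 (-0.17). Adjusted p lay between 0.0038 and 1 over the settings run, with the upper end from the test against 2-fold.

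CDKN1C encodes p57, an imprinted inhibitor expressed mainly from the maternal copy and known from tissues that leave the cell cycle during development. It lies on chromosome 11 at 2883213 to 2885773, on the minus strand. It had 132 and 151 counts on day 0, or 5.21 and 5.19 CPM. On day 2 it had 26.2 and 27.5 CPM, and on day 5 it had 143 and 145 CPM. The 3 days were far apart, each later day above the one before. The log2 fold change was 2.37 ± 0.08 on day 2 against day 0 (adjusted p = 7.1e-14 in edgeR), 2.42 ± 0.05 on day 5 against day 2 (adjusted p = 8.0e-17 in edgeR) and 4.79 ± 0.07 on day 5 against day 0, a 27.7-fold rise (adjusted p = 1.5e-19 in edgeR). Of the 10 genes it had the largest fold change in each of the 3 comparisons in which it rose, and all 3 passed the test against 2-fold. Thus CDKN1A and CDKN1C moved together on day 2 and in opposite directions on day 5, and the ratio of CDKN1C counts to CDKN1A counts, which no scaling factor touches, was 0.00350 and 0.00341 on day 0, 0.00728 and 0.00746 on day 2, and 0.197 and 0.196 on day 5.

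Levels of different genes are compared here only per base of gene length, with the lengths deposited in the table. On that basis CDKN1A made up 95.9% and 96.2% of the CIP/KIP counts per base on day 0, 95.6% and 95.5% on day 2, and 72.1% and 72.2% on day 5. CDKN1C made up 0.366% and 0.357% on day 0, 0.758% and 0.776% on day 2, and 15.5% and 15.4% on day 5. CDKN1B made up 3.48% to 3.73% of the CIP/KIP counts per base in the libraries of day 0 and day 2, and 12.4% and 12.3% on day 5. The summed level of the 3 genes was 1516 and 1553 CPM on day 0, 3690.3 and 3769 CPM on day 2, and 922 and 940.2 CPM on day 5, and so followed CDKN1A. The deposited length of CDKN1B, 897 bases, is shorter than its longest GENCODE transcript of 2657 bases, and its day 5 share was 4.81% to 4.85% with the longest transcripts as lengths and 5.98% to 6.03% with all exons merged.

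Of the 4 INK4 genes, 3 were higher and 1 lower on day 5 against day 0. None of them passed the test against 2-fold on day 2 or on day 5 when set against day 0. CDKN2A lies on chromosome 9 at 21967753 to 21995301 and encodes p16 and, from another start and reading frame, the protein ARF, which a count per gene cannot tell apart. It had 19.4 and 18.9 CPM on day 0, 22.7 and 22.2 CPM on day 2, and 34.1 and 29.3 CPM on day 5. Both later days lay above day 0, and the spread was widest on day 5. On day 5 against day 0 it rose by a log2 fold change of 0.72 ± 0.09 (adjusted p = 1.0e-06 in edgeR), and on day 5 against day 2 by 0.50 ± 0.09 (adjusted p = 7.6e-05 in edgeR). On day 2 against day 0 the log2 fold change was 0.23 ± 0.09 (adjusted p = 0.027 in edgeR). That call was lost with library totals (log2 fold change 0.04, adjusted p = 0.66) and with DESeq2 (adjusted p = 0.079). It was also lost without any 1 of the day 0 and day 2 libraries (log2 fold change 0.20 to 0.25). Adjusted p lay between 0.019 and 1 over the settings run, with the upper end from the test against 2-fold.

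CDKN2B, the neighbour of CDKN2A on chromosome 9 at 22002903 to 22009363, encodes p15, an inhibitor known for its induction by TGF-beta. It had 9.23 and 10.1 CPM on day 0, 19.8 and 18.8 CPM on day 2, and 19.4 and 21.4 CPM on day 5. Day 2 and day 5 overlapped, and both lay above day 0. The rise was 1.99-fold on day 2 (log2 fold change 1.00 ± 0.10, adjusted p = 1.3e-07 in edgeR) and 2.11-fold on day 5 against day 0 (adjusted p = 6.3e-08 in edgeR). The difference of day 5 against day 2, a log2 fold change of 0.08 ± 0.10, was smaller than its error (adjusted p = 0.46 in edgeR). CDKN2B thus had no called step after day 2, while CDKN2A rose there, and the difference between the genes was not tested. The ratio of CDKN2B counts to CDKN2A counts was 0.475 and 0.533 on day 0, 0.870 and 0.846 on day 2, and 0.569 and 0.730 on day 5.

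CDKN2C encodes p18 and lies on chromosome 1 at 50960745 to 50974633. It was the scarcest of the 10 genes per base on day 0 and day 2, with 84 and 126 counts on day 0, 62 and 47 on day 2, and 137 and 116 on day 5. In CPM these were 3.31 and 4.33 on day 0, 2.58 and 1.75 on day 2, and 8.22 and 6.33 on day 5. Day 2 lay below and day 5 above both day 0 libraries. It was 3.37-fold higher on day 5 than on day 2 (log2 fold change 1.75 ± 0.24, adjusted p = 4.6e-06 in edgeR) and 1.89-fold higher on day 5 than on day 0 (adjusted p = 0.0012 in edgeR). The test against 2-fold on day 5 against day 2 (adjusted p = 0.0052) was lost without day 2 replicate 2 (0.094), or when day 5 replicate 1 was left out (0.063), with adjusted p between 0.0024 and 0.094 over the settings run. The drop on day 2 against day 0 was a log2 fold change of -0.83 ± 0.24 (adjusted p = 0.0056 in edgeR). Its call was lost without day 0 replicate 2 (log2 fold change -0.63) or without day 2 replicate 2 (-0.57). Adjusted p lay between 0.00049 and 1 over the settings run, with the upper end from the test against 2-fold.

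CDKN2D encodes p19, an INK4 protein distinct from ARF, and lies on chromosome 19 at 10566462 to 10569059. It was the only INK4 gene that fell on day 5 against day 0, with 10.7 and 11.1 CPM on day 0, 8.66 and 9.45 CPM on day 2, and 7.08 and 7.48 CPM on day 5. The days did not overlap. The log2 fold change on day 5 against day 0 was -0.58 ± 0.13 (adjusted p = 0.00081 in edgeR). Neither step was firm by itself. The log2 fold change of -0.26 ± 0.12 on day 2 against day 0 had an adjusted p of 0.066 in edgeR. It passed under 3 other settings, library totals (0.0035), TMM factors computed without IGFBP5 (0.044) and limma-voom (0.049). The step on day 5 against day 2 (-0.32 ± 0.13, adjusted p = 0.046 in edgeR) was lost in 11 of 16 settings. Its adjusted p lay between 0.034 and 1 over the settings run, with the upper end from the test against 2-fold. IGFBP5, a binding protein of insulin-like growth factors, had 113097 and 113084 CPM on day 5, against 3467 and 3465 CPM on day 0. Its counts enter the library totals. Nearly all of its rise came after day 2 (log2 fold change 4.94 ± 0.01 on day 5 against day 2, 5.03 ± 0.01 against day 0). Library totals moved the median of all genes to -0.18 from 0.00 on day 2 against day 0, but only to -0.01 from 0.01 on day 5 against day 2. What separates the 2 scalings was not tested.

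As a family, the INK4 genes summed to 42.6 and 44.4 CPM on day 0, 53.8 and 52.2 CPM on day 2, and 68.9 and 64.5 CPM on day 5. Summed as TPM, the level per base, which is scaled to a fixed total in each library, they stood at 75.5 and 75.7 on day 0, 74.5 and 73.5 on day 2, and 113 and 102 on day 5. The day 5 libraries were highest on both scales, and the order of day 2 and day 0 turned with the scale. By the deposited lengths CDKN2A made up 64.4% to 75.1% of the INK4 counts per base in the 6 libraries, and CDKN2D fell to 9.62% and 11.3% on day 5, against 22.6% and 23.3% on day 0. These shares depend on the length used, since the 880 bases deposited for CDKN2A are fewer than in its longest GENCODE transcript, of 1283 bases. With all GENCODE exons merged, CDKN2A took 35.8% to 39.7% on day 5 and 28.1% to 30.2% on day 0, and CDKN2D took 23.7% to 26.3% on day 5 and 47.5% to 47.7% on day 0, so that CDKN2D then came above CDKN2A on day 0. The share of CDKN2D was lower on day 5 than on day 0 with each of the 3 lengths. The summed TPM above rest on the deposited lengths.

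All 3 D cyclins fell on day 2 against day 0 and were below day 0 on day 5. CCND1, which lies on chromosome 11 at 69641087 to 69654474, is the main D cyclin of fibroblasts. It had 2785 and 2829 CPM on day 0, 1969 and 1962 CPM on day 2, and 456 and 445 CPM on day 5. The days were far apart beside the spread of the libraries. The log2 fold change was -0.51 ± 0.02 on day 2 against day 0 (adjusted p = 2.9e-14 in edgeR) and -2.13 ± 0.02 on day 5 against day 2 (adjusted p = 3.9e-22 in edgeR), so most of the 6.23-fold drop on day 5 against day 0 fell after day 2 (log2 fold change -2.64 ± 0.02, adjusted p = 2.0e-23 in edgeR).

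CCND3, a D cyclin found in most tissues, lies on chromosome 6 at 41934933 to 42050357. It had 196 and 199 CPM on day 0, 111 and 108 CPM on day 2, and 44.0 and 46.4 CPM on day 5. It fell at both steps, by a log2 fold change of -0.85 ± 0.04 on day 2 against day 0 (adjusted p = 1.3e-12 in edgeR) and of -1.28 ± 0.05 on day 5 against day 2 (adjusted p = 8.9e-14 in edgeR). On day 5 it was 4.37-fold below day 0 (adjusted p = 2.3e-17 in edgeR). CCND2 lies on chromosome 12 at 4273772 to 4305350 and took another course. It had 30.6 and 28.7 CPM on day 0, 8.83 and 7.66 CPM on day 2, and 15.2 and 14.6 CPM on day 5, so day 2 was lowest and day 5 lay between the other days. Its drop on day 2 was 3.60-fold (log2 fold change -1.85 ± 0.10, adjusted p = 2.7e-11 in edgeR) and was the only change of a D cyclin larger than 2-fold in that comparison (glmTreat adjusted p = 3.7e-07). On day 5 it was 1.81-fold above day 2 (adjusted p = 3.0e-06 in edgeR) and 1.99-fold below day 0 (adjusted p = 6.3e-08 in edgeR). The drop of CCND2 on day 5 against day 0 passed the test against 2-fold with library totals (adjusted p = 0.036) but not with TMM factors (0.85).

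**Figure D2:**
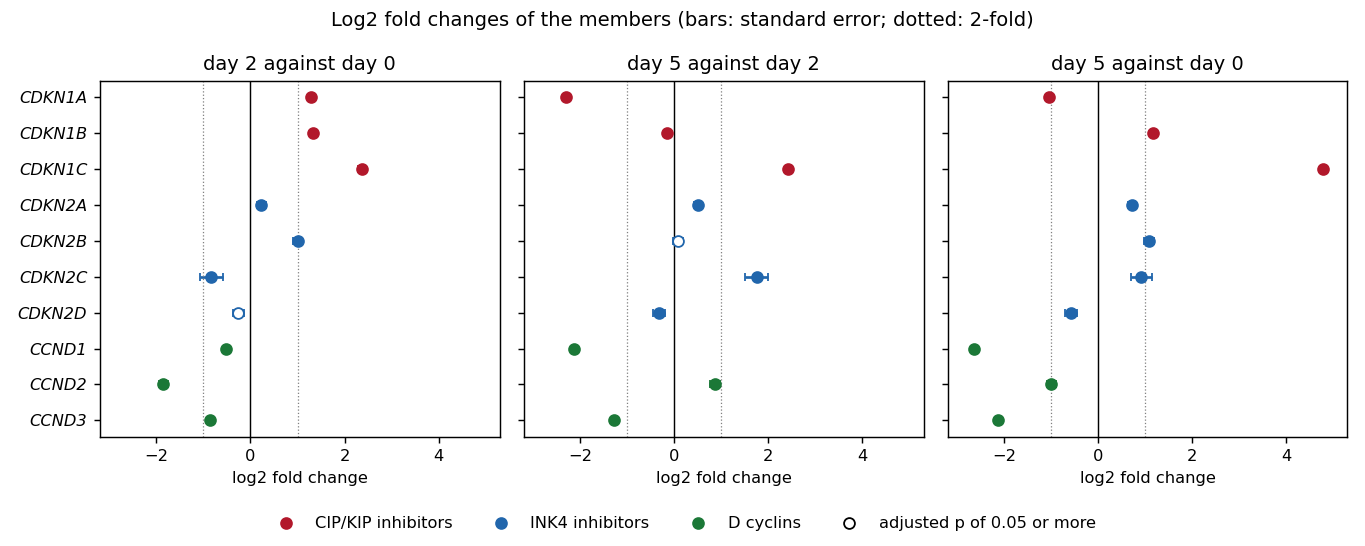
Log2 fold change (horizontal axis) of the 10 genes (rows) in the 3 comparisons (panels), with the standard error as bars, often hidden by the point, and dotted lines at a 2-fold change. Filled points passed an edgeR adjusted p of 0.05, and the open points are CDKN2D on day 2 against day 0 (-0.26) and CDKN2B on day 5 against day 2 (0.08).

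The balance of D cyclins to CIP/KIP inhibitors shifted on day 2 and held there on day 5. D cyclin counts divided by CIP/KIP counts gave 1.99 and 1.97 on day 0, 0.566 and 0.551 on day 2, and 0.559 and 0.538 on day 5. The level of this ratio depends on gene lengths, so only its change between days is read. CCND1 counts over CDKN1A counts gave 1.87 and 1.86 on day 0, 0.546 and 0.533 on day 2, and 0.629 and 0.600 on day 5. On day 2 CDKN1A was above its day 0 level and CCND1 moderately below its own, and on day 5 both were below day 0. D cyclin counts over INK4 counts fell further at each step, with 70.6 and 68.9 on day 0, 38.8 and 39.8 on day 2, and 7.49 and 7.84 on day 5. Within the D cyclins CCND1 held 80.7% to 89.4% of the counts per base of deposited length in the 6 libraries. CCND3 rose to 16.5% and 17.6% on day 5, against 12.8% in both day 0 libraries. With all GENCODE exons merged, CCND3 took 7.28% to 7.83% on day 5 and 5.5% on day 0. CCND1 then took 90.2% to 90.7% on day 5 and 93.8% to 93.9% on day 0. These shares and ratios are given as a description, with no test, and an exact permutation of 2 libraries against 2 could not give a two-sided p below 0.333.

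**Figure D3:**
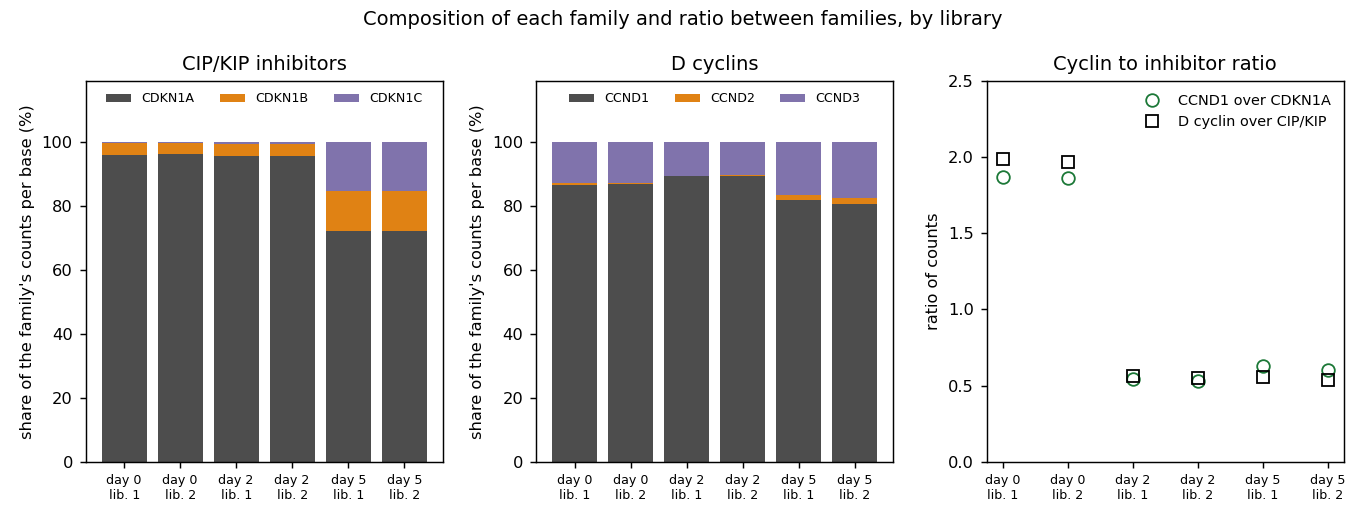
Left and middle panels: share of each gene in its family's counts per base of deposited gene length (%), for the CIP/KIP inhibitors and the D cyclins, in each library. Right panel: D cyclin counts over CIP/KIP counts and CCND1 counts over CDKN1A counts, which stand at 1.97 to 1.99 and 1.86 to 1.87 on day 0 and at or below 0.629 in the 4 later libraries.

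By counts per base of deposited length, CDKN1A came above CCND1 in all 6 libraries, and CCND3 was in the third place on day 0. CDKN1C moved up to the third place on day 5, above CDKN1B and CCND3. The order of the leading pair on day 0 was not firm: CCND1 stood at 0.926 of CDKN1A with the deposited lengths, at 0.981 with the longest GENCODE transcript and at 1.18 with all GENCODE exons merged. CDKN2C or CCND2 came last in each library. On day 5 CCND2, with 5.09 and 4.93 TPM, and CDKN2C, with 6.2 and 4.8 TPM, did not differ beyond their spread. The day 5 ranges of CDKN2B and CDKN2D also overlapped.

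RefSeq promoter sequences on GRCh38.p14 were matched by symbol for 7 of the 10 genes, all but CCND1, CCND2 and CDKN1C, in 12 windows of 250 bases before a transcript start. The stretches below, from the windows of a gene that rose and then fell (CDKN1A), one that rose (CDKN2B) and one that fell (CDKN2D), are the parts of those windows outside GENCODE exons, 5′ to 3′ on the gene's strand. Capitals mark GGGCGG, the GC box bound by SP1 and SP3, and TGACG, the core of a site for CREB, the factor that cAMP activates, both searched on both strands.
CDKN1A, chr6:36678560-36678657, plus strand: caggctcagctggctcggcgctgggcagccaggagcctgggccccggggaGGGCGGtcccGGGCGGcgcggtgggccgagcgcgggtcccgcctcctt
CDKN2B, chr9:22009364-22009555, minus strand: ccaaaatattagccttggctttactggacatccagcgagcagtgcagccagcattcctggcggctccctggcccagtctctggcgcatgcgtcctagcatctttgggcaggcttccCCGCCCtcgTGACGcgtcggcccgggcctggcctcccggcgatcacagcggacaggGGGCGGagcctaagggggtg
CDKN2D, chr19:10569060-10569229, minus strand: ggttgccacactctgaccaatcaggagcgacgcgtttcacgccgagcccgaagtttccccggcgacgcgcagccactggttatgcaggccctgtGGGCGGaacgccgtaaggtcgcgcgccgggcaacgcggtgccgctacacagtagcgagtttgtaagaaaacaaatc
Over the full windows, GGGCGG was in 9 of 12, and in 42.6% of all 35116 windows of the table. TGACG was in 4 of 12, those of CDKN2B and CDKN2C, and in 21.2% of all windows. The full cAMP response element TGACGTCA, which contains TGACG, was in 0 of 12 and in 1.65% of all, and the E2F sites TTTCGCGC and TTTGGCGC, the FOXO site TGTTTAC and TATAAA were in 0 of 12 too, against 0.439%, 0.550%, 2.98% and 10.7% of all windows. These matches are a description of the letters in these windows only.

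The kinases that the members act on took separate courses. Of the 16 CDK and cyclin partner genes, 15 were tested. On day 2 against day 0, 4 rose and 10 fell (2 and 11 with library totals), with a median log2 fold change of -0.80, and on day 5 against day 0, 2 rose and 10 fell (median -0.72). Between these, day 5 against day 2 had 7 higher and 7 lower (median -0.27). CDK4, a partner of the D cyclins, had 102 and 106 CPM on day 0, 56.4 and 55.0 CPM on day 2, and 135 and 138 CPM on day 5. It was thus lowest on day 2 and highest on day 5, with a log2 fold change of -0.90 ± 0.04 on day 2 against day 0 (adjusted p = 6.8e-12 in edgeR) and of 1.29 ± 0.04 on day 5 against day 2 (adjusted p = 4.6e-14 in edgeR). CCND1 counts over CDK4 counts were 27.4 and 26.7 on day 0, 34.9 and 35.7 on day 2, and 3.38 and 3.21 on day 5. CDK6, the other partner, had 53.8 and 57.1 CPM on day 0, 64.0 and 62.5 CPM on day 2, and 40.8 and 40.6 CPM on day 5, a log2 fold change of -0.64 ± 0.06 on day 5 against day 2 (adjusted p = 2.4e-08 in edgeR). Its call on day 2 against day 0 (adjusted p = 0.0033 in edgeR) was lost with library totals (0.95) and without day 0 replicate 1. Adjusted p lay between 0.0027 and 1 over the settings run, with the upper end from the test against 2-fold. CDK2, the main target of the CIP/KIP proteins, went with CDKN1A on day 2 and had 36.6 and 34.1 CPM on day 0, 89.2 and 91.4 CPM on day 2, and 36.7 and 37.7 CPM on day 5. Its rise on day 2 was a log2 fold change of 1.36 ± 0.05 (adjusted p = 3.1e-13 in edgeR). Its partner CCNE1, cyclin E1, fell by a log2 fold change of -2.28 ± 0.19 on day 5 against day 0 (adjusted p = 1.3e-08 in edgeR), to 1.92 and 2.13 CPM on day 5, against 10.3 and 9.42 CPM on day 0. CCNE2, cyclin E2, was near the limit of detection, with 14 and 32 counts on day 0, 1 and 5 on day 2, and 8 and 11 on day 5. CCNA2, cyclin A2 of S phase, had 6.63 and 9.21 CPM on day 0, 4.37 and 4.76 CPM on day 2, and 3.48 and 4.09 CPM on day 5 (-1.07 ± 0.19 on day 5 against day 0, adjusted p = 0.00011 in edgeR). The mitotic cyclin CCNB1 fell on day 2, by a log2 fold change of -2.61 ± 0.12 against day 0 (adjusted p = 6.0e-12 in edgeR).

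Of 18 RB and E2F genes, 17 were tested, and 4 rose and 6 fell on day 2 against day 0, or 3 and 11 with library totals. On day 5 against day 2, 11 rose and 3 fell (median log2 fold change 0.28). On day 5 against day 0, 8 rose and 3 fell, or 4 and 4 with library totals. RB1, the retinoblastoma gene, had 22.4 and 19.2 CPM on day 0, 42.8 and 41.4 CPM on day 2, and 54.5 and 53.8 CPM on day 5 (log2 fold change 1.39 ± 0.07 on day 5 against day 0, adjusted p = 1.7e-11 in edgeR). RBL2, which encodes the RB relative p130 of resting cells, had 37.2 and 36.2 CPM on day 0, 99.9 and 96.9 CPM on day 2, and 68.1 and 70.3 CPM on day 5 (1.42 ± 0.05 on day 2 against day 0, adjusted p = 4.9e-14 in edgeR). RBL1, the relative p107 of cycling cells, went the other way on day 2, by -1.67 ± 0.27 against day 0 (adjusted p = 4.2e-05 in edgeR), and E2F1 fell at both steps, to 1.26 and 1.53 CPM on day 5, against 7.06 and 8.14 CPM on day 0 (-2.44 ± 0.22, adjusted p = 2.7e-08 in edgeR).

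A list of 26 E2F target and proliferation genes shares CCNE1, CCNE2, CCNA2 and CDK1 with the CDK and cyclin partner genes above. Of the 26 genes, 23 fell and 1 rose on day 2 against day 0. Their median log2 fold change was -1.48, beside 0.00 over all tested genes. On day 5 against day 2, 12 rose and 5 fell (median 0.36), and on day 5 against day 0, 23 fell and 1 rose (median -1.15). MKI67, a marker of dividing cells, had 15.5 and 14.1 CPM on day 0, 0.875 and 0.372 CPM on day 2, and 5.76 and 6.82 CPM on day 5. It was thus lowest when CDKN1A was highest and partly regained on day 5 (log2 fold change 3.36 ± 0.26 against day 2, adjusted p = 5.5e-09 in edgeR), while CCND1 fell further. UHRF1, a maintenance factor of DNA methylation and an E2F target, fell by -4.22 ± 0.14 on day 2 against day 0 (adjusted p = 5.9e-14 in edgeR). PCNA, the sliding clamp of DNA polymerase, was the gene that rose, to 64.97 and 66.4 CPM on day 2 and 87.9 and 85.7 CPM on day 5, against 52.5 and 51.6 CPM on day 0 (0.74 ± 0.05 on day 5 against day 0, adjusted p = 2.8e-10 in edgeR). PCNA is also bound by p21.

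**Figure D4:**
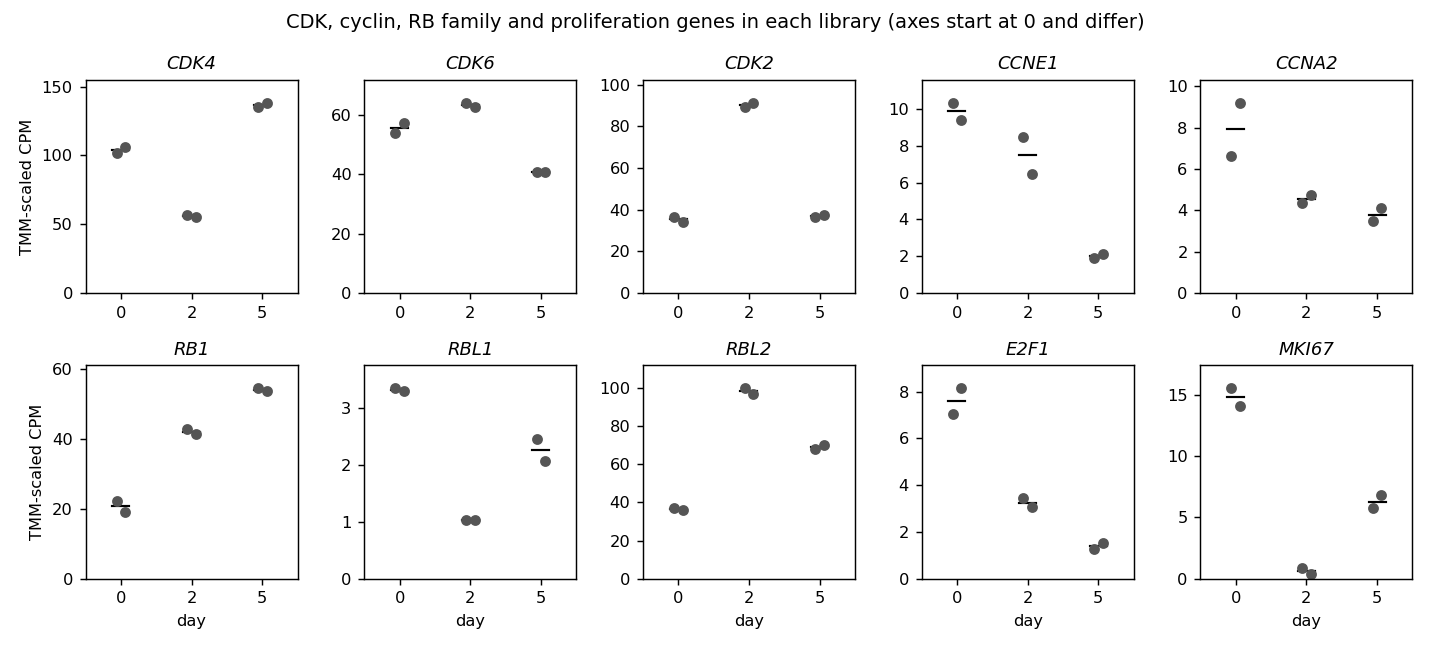
TMM-scaled CPM (vertical axis, from 0, a separate scale for each gene) of 10 CDK, cyclin, RB family and proliferation genes by day (horizontal axis). Points are the 2 libraries of a day and bars their mean. CDK2 and RBL2 peak on day 2, CDK4, RBL1 and MKI67 are lowest on day 2, and E2F1 and CCNE1 are lowest on day 5.

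Among 16 genes for the turnover of CIP/KIP inhibitors and D cyclins, 5 rose and 8 fell on day 2 against day 0 (median log2 fold change -0.09), 4 rose and 7 fell on day 5 against day 2 (-0.11), and 2 rose and 8 fell on day 5 against day 0 (-0.30, beside 0.04 over all tested genes). With library totals the last counts were 1 and 13. SKP2, the ligase subunit that targets p27, had 16.7 and 16.2 CPM on day 0, 24.6 and 25.3 CPM on day 2, and 14.8 and 14.2 CPM on day 5. It rose on day 2 (log2 fold change 0.61 ± 0.08, adjusted p = 6.1e-06 in edgeR), as CDKN1B did, and fell on day 5 against day 2 (-0.78 ± 0.09, adjusted p = 7.6e-07 in edgeR). PSMD2, a proteasome subunit, fell by -0.84 ± 0.03 on day 2 against day 0 (adjusted p = 1.9e-13 in edgeR).

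Of 19 chromatin regulators known from the INK4 locus, 9 rose and 3 fell on day 2 against day 0 (6 and 5 with library totals), 10 rose and 5 fell on day 5 against day 2, and 11 rose and 5 fell on day 5 against day 0. CBX7, a Polycomb protein that represses CDKN2A, had 15.5 and 18.4 CPM on day 0, 29.6 and 28.6 CPM on day 2, and 7.68 and 7.48 CPM on day 5, a log2 fold change of -1.94 ± 0.11 on day 5 against day 2 (adjusted p = 6.3e-11 in edgeR). KDM6B, a demethylase of the Polycomb mark known to act at this locus, had 31.5 and 30.6 CPM on day 0, 36.9 and 37.5 CPM on day 2, and 92.7 and 93.8 CPM on day 5 (1.32 ± 0.05 on day 5 against day 2, adjusted p = 3.2e-13 in edgeR). CDKN2A itself rose on day 5 against day 2, as given above. Most genes of this list encode Polycomb subunits, and so did most of the 10 that rose in that comparison. The Polycomb subunits CBX6 (0.49 ± 0.04, adjusted p = 1.3e-08 in edgeR) and PHC1 (0.68 ± 0.08, adjusted p = 9.8e-07 in edgeR) were among the 10, and CBX7 among the 5 that fell. A link of any of these genes to CDKN2A was not tested. JARID2, a subunit of a Polycomb complex, rose by 1.74 ± 0.07 on day 2 against day 0 (adjusted p = 1.2e-12 in edgeR).

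Of 38 transcription factors known to act on members, 34 were tested, and 23 rose and 7 fell on day 2 against day 0 (median log2 fold change 0.48, or 19 and 10 with library totals), 15 rose and 14 fell on day 5 against day 2 (0.11), and 23 rose and 9 fell on day 5 against day 0 (0.61, or 19 and 10 with library totals). KLF4, which can activate CDKN1A, had 6.07 and 6.43 CPM on day 0, 2.92 and 3.57 CPM on day 2, and 30.9 and 29.3 CPM on day 5, an order opposite to that of CDKN1A. KLF6, another activator of CDKN1A, had 153 CPM in both day 0 libraries, 204 and 199 CPM on day 2, and 44.7 and 43.8 CPM on day 5, the same order as CDKN1A (log2 fold change -2.19 ± 0.04 on day 5 against day 2, adjusted p = 1.4e-17 in edgeR).

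MDM2, a ubiquitin ligase, had 88.8 and 91.2 CPM on day 0, 123 and 118 CPM on day 2, and 91.6 and 93.0 CPM on day 5. It rose by 0.42 ± 0.04 on day 2 against day 0 (adjusted p = 5.8e-08 in edgeR) and fell by 0.39 on the log2 scale on day 5 against day 2 (adjusted p = 3.5e-07 in edgeR), the directions of CDKN1A with smaller sizes. CCNG1, cyclin G1, was also highest on day 2, with 99.1 and 100.4 CPM on day 0, 217 and 229 CPM on day 2, and 109 and 106 CPM on day 5. Its rise on day 2 against day 0 was 1.16 ± 0.04 (adjusted p = 1.9e-14 in edgeR). The courses parted on day 5: CDKN1A ended below its day 0 level, while MDM2 and CCNG1 in CPM did not. With library totals MDM2 (log2 fold change -0.17) and CCNG1 (-0.10) also lay below day 0, by less than CDKN1A (-1.24). PLK2, a kinase, rose at both steps to 973 and 961 CPM on day 5, against 163 and 165 CPM on day 0, and GADD45A, which inhibits CDK1, fell on day 2 by -1.11 ± 0.05 against day 0 (adjusted p = 1.9e-12 in edgeR).

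Genes next to the members were read for the 2 loci where neighbours are known to share control. At the CDKN2A and CDKN2B locus 3 of 6 listed neighbours were tested. CDKN2B-AS1, an antisense RNA that overlaps CDKN2B, had 15 and 16 counts on day 0, 35 and 27 on day 2, and 40 and 37 on day 5 (log2 fold change 1.94 ± 0.39 on day 5 against day 0, adjusted p = 0.00032 in edgeR). The strand setting of the counts was not given, so its reads cannot be told apart from those of CDKN2B where they overlap. MTAP, on the other side of CDKN2A, had 22.9 and 23.7 CPM on day 0, 33.2 and 30.2 CPM on day 2, and 30.7 and 30.1 CPM on day 5 (0.44 ± 0.07 on day 2 against day 0, adjusted p = 4.4e-05 in edgeR). At the imprinted locus of CDKN1C 6 of 8 neighbours were tested, and 1 rose and 5 fell on day 5 against day 0. The one that rose was KCNQ1OT1, the RNA of the paternal copy known to silence CDKN1C there, with 6.75 and 7.32 CPM on day 0, 19.8 and 19.9 CPM on day 2, and 25.7 and 28.9 CPM on day 5 (1.96 ± 0.10 on day 5 against day 0, adjusted p = 2.1e-11 in edgeR). PHLDA2, which like CDKN1C is expressed from the maternal copy, fell to 8.04 and 9.17 CPM on day 5, against 65.9 and 66.8 CPM on day 0 (-2.94 ± 0.08, adjusted p = 9.1e-16 in edgeR). CDKN1C and PHLDA2 thus moved in opposite directions in the same libraries.

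A list of 18 genes known from senescence holds mainly secreted factors, which often rise with CDKN1A and CDKN2A in senescent fibroblasts. It also holds genes that are not secreted, such as LMNB1 of the nuclear lamina. Its counts therefore do not measure a senescent direction. On day 2 against day 0, 14 rose and 4 fell (median log2 fold change 0.74). LMNB1 was among those that fell (-1.52 ± 0.18, adjusted p = 1.2e-06 in edgeR). On day 5 against day 2, 5 rose and 11 fell (median -1.52), and on day 5 against day 0, 10 rose and 7 fell (median 0.39). GDF15 had 68.6 and 69.7 CPM on day 0, 818 and 851 CPM on day 2, and 278 and 292 CPM on day 5, with its peak on day 2 as for CDKN1A.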

How the data were processed

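Per the labels' protocols, total RNA was made into Illumina TruSeq libraries. Each gene had deposited expected counts, unscaled between libraries, per the file headers and the values. Per the submitters' processing notes GRCh38 was the build. Not given in the sources used here are the aligner, counter, annotation release and strand setting. The counts of CDKN2A, CCND1 and CCND2 were not all whole, so reads shared with similar genes may have been split there. Counts were rounded, and 172 unnamed genes were left out (at most 0.0475% of a library). The deposited gene length, of which the authors' definition is another thing not given, was used only for TPM and shares per base.

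Using R 4.3.3, 1 edgeR 4.0.16 fit by day held all 6 libraries, after filterByExpr (minimum count 10, minimum total 15) and TMM scaling. The two-sided quasi-likelihood test (residual degrees of freedom 3) was used, and glmTreat at a log2 fold change of 1. The SE is the log2 fold change over the square root of F. The fit was run on simulated counts in which a small set of genes changed, on day 2 only. Such counts cannot test the scaling of data in which most genes were called. The other settings were RLE factors, library totals, TMM without IGFBP5, DESeq2 1.42.0, limma-voom (limma 3.58.1), no filter, CPM of at least 1 in 4 libraries, only the 2 days compared, a replicate block, leaving out each library, and the test against 2-fold. Members, lists and tests were chosen with earlier results of these data known. The genes named are the members, 18 partners fixed by name and, from each list, some of the up to 3 of lowest adjusted p in a direction, picked from these after their values were seen; IGFBP5 is named for its share of counts. A few of these are not reported here. Positions are from GENCODE release 29, matched by gene ID for 10 of 10 members.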

Additional observations from a re-analysis of the deposited data

How the results depend on the processing

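Of 480 values (30 log2 fold changes of members under 16 other settings), 442 kept their direction and their side of the threshold, 35 lost the call, 3 gained one and 0 reversed. The test against 2-fold is 1 of the 16 settings. A call lost there means only that the change was not shown to be larger than 2-fold. The test against 2-fold left 3 members higher and 1 lower on day 2 against day 0 (2045 genes in all), 2 higher and 3 lower on day 5 against day 2 (2345 genes) and 2 higher and 3 lower on day 5 against day 0 (3278 genes). Leaving out 1 library gave 3 to 5 members lower on day 5 against day 2, where the calls of CDKN1B or CDKN2D were lost, and 1 to 2 members above 2-fold upward on day 5 against day 2 and on day 5 against day 0. Library totals gave 1 upward in the last comparison. CCND1 over CDKN1A per base on day 0 was 1.175 with merged GENCODE exons and 0.981 with the longest transcript. These 2 lengths, also used for the shares per base, the 2-fold test under other settings and the named genes outside the family were added after seeing the data. Among the latter, library totals reversed MDM2 (-0.17) and CCNG1 (-0.10) on day 5 against day 0. Deviations of libraries with the same replicate number were nearly uncorrelated between days (0.00438, 0.00298 and 0.0197). Counting noise in scarce genes can hide a shared batch here, so a pairing is not excluded. With the replicate block 10806, 10642 and 11297 genes were called, in place of 10912, 10746 and 11405. The count of members was unchanged in each direction. At the depth of day 2, CDKN2C, with 47 to 62 counts, was the least certain.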
